A study of Mus musculus with 17 samples.

Results

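Cholesterol synthesis genes were followed through aging in the mouse hippocampus. The set held 7 genes, listed by symbol: Hmgcs1, Idi1, Fdps, Fdft1, Sqle, Lss and Dhcr7. They were taken from 38355 gene identifiers counted in each library, and all 7 were found and passed the filter on low counts in both comparisons. Each encodes an enzyme of the synthesis route, and no receptor or other uptake gene was among them. Uptake genes were read as 1 of 6 further lists, which together are reported here over 58 genes of the pathway and its surroundings.

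The brain makes nearly all of its own cholesterol, because lipoproteins of the blood do not cross the blood-brain barrier. Synthesis starts from acetyl-CoA, passes through mevalonate and the isoprenoid diphosphates to squalene, and continues through lanosterol to cholesterol. Most of the enzymes share a transcription factor, SREBP2, which SCAP carries out of the endoplasmic reticulum when membrane sterol falls and which INSIG proteins hold back when sterol is plentiful. Oligodendrocytes need cholesterol for myelin, and astrocytes supply neurons with it on particles that carry apolipoprotein E.

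All mice were untreated wild-type C57BL/6J animals, and polyA RNA came from hippocampi dissected by hand. In 1 experiment, mice of 3 months (3M, n = 5) were compared with mice of 24 months (24M, 6 libraries) by single-end reads of 50 bases. In the other, mice of 3 months (3M, n = 3) were compared with mice of 29 months (29M, n = 3) by paired-end reads of 100 bases. Aged group, experiment and library type varied together, so aged mice were compared only with the 3M libraries sequenced the same way. Titles number the samples but do not tie a number to an animal, so p-values measure the spread between these samples, which may be partly technical.

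Reads counted on genes ranged from 19144461 to 28438296 per library at 3M and from 9213474 to 19756411 at 24M in single-end data. In paired-end data they ranged from 10977976 to 15054972 at 3M and from 10991389 to 13563541 at 29M. Libraries 1 and 4 of the 24M group differed by less than sampling noise (variance ratio 0.406, against at least 1.23 in the other 135 pairs), so their mean was counted as 1 sample and 24M has n = 5. The 8 hippocampal markers were above 0 in every sample. Replicate 4 of the 3M single-end group stood apart, with a summed level of 8 striatal markers of 582 CPM (reads of a gene scaled to library size) against 134 to 205 CPM in the other 4. Markers of blood reached 538 CPM in 24M replicate 2, against 75.4 to 158 CPM in the other 24M samples. In bulk tissue, fewer cells of a type and less RNA per cell cannot be told apart.

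Sequence around the genes bears on how they were regulated and on how their reads could be counted. RefSeq promoter windows (GRCm38.p6, from 250 bases before to 50 bases after the annotated start) were at hand for 4 of the 7 genes, Hmgcs1, Idi1, Lss and Dhcr7. They were searched on both strands for the sterol regulatory element TCACCCCAC and its looser forms TCACNCCAC and TCACNCNAC, and for CCAAT (bound by NF-Y) and GGGCGG (bound by Sp1). Dhcr7 had several windows, and other forms of the sterol element were not searched. Of these 4 genes only Hmgcs1 held a searched form of the sterol element. It was the exact form, which lay 137 bases before the start (position -137). The same element was present in 0.551% of 32851 promoter windows, the looser forms in 1.24% and 2.7%. CCAAT occurred in 37.4% and GGGCGG in 35.7% of them. These matches describe letters in the windows and not bound sites. The 250 bases before the Hmgcs1 start, at chr13:119690101-119690350 on the plus strand, are shown with the sterol element, CCAAT and GGGCGG (or their reverse complements) in capitals.
Hmgcs1 promoter: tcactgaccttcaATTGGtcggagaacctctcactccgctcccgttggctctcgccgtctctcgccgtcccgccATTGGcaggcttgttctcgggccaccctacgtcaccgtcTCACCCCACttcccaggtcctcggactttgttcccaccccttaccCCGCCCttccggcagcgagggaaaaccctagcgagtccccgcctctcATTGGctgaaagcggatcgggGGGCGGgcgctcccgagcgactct

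Idi1, Fdps and Fdft1 share sequence with processed pseudogenes, which are intronless copies of an mRNA elsewhere in the genome (GENCODE M21, GRCm38). Idi1 and Fdps have several. For each gene the copy that shared the most stretches of 50 bases is described. Gm13502 on chromosome 2 matched the Idi1 coding sequence over 681 of 681 aligned bases. Gm3571 on chromosome 10 was 98.9% identical to the Fdps coding sequence, and Gm6781 on chromosome 14 was 97.4% identical to that of Fdft1. The following stretches of 100 bases of coding sequence show how alike gene and copy are, with capitals at the positions that differ. Bases 459 to 558 of Idi1 were the same in its copy and are shown once. Bases 481 to 580 of Fdps and 575 to 674 of Fdft1 each differed from their copy at 1 position.
Idi1 and Gm13502: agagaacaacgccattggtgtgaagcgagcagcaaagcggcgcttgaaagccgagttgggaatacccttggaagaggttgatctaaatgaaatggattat
Fdps: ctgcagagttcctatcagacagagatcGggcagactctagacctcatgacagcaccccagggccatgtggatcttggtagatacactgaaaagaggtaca
Gm3571: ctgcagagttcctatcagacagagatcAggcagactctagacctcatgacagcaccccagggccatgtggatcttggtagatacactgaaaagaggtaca
Fdft1: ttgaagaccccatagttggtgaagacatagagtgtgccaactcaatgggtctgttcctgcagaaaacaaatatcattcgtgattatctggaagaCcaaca
Gm6781: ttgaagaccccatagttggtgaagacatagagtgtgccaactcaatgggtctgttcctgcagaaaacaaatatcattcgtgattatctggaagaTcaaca

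None of the 7 genes was called different at 24M or at 29M, and 6 of 7 lay above 3M at 24M and 5 of 7 at 29M by small amounts. Over all genes tested 7723 lay above and 7960 below 3M at 24M, and 7452 above and 7645 below at 29M. Calls needed an adjusted p up to 0.05 together with a log2 fold change of 0.5 or more in either direction. The p-values came from the quasi-likelihood test of edgeR and were adjusted by Benjamini-Hochberg over all genes tested. Of 15683 genes tested at 24M, 1.34% were called higher and 0.638% lower. Of 15097 tested at 29M, 1.34% were called higher and 0.113% lower. Without the fold threshold 0 of 7 members passed at either age, where 3.21% of all genes passed as higher and 2.37% as lower at 24M, and 2.32% and 0.662% at 29M. At an unadjusted p below 0.05 there were 3 of 7 members at 24M (Hmgcs1, Fdft1 and Lss) and 3 of 7 at 29M (Sqle, Fdft1 and Lss), where 26.1% and 17.3% of all genes tested were below it. DESeq2 called 0 members at either age, and without the fold threshold it passed 1, Fdft1, at 24M. The median log2 fold change of the 7 genes was 0.13 at 24M and 0.09 at 29M, beside -0.0032 and -0.0021 over all genes tested.

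**Figure D1:**
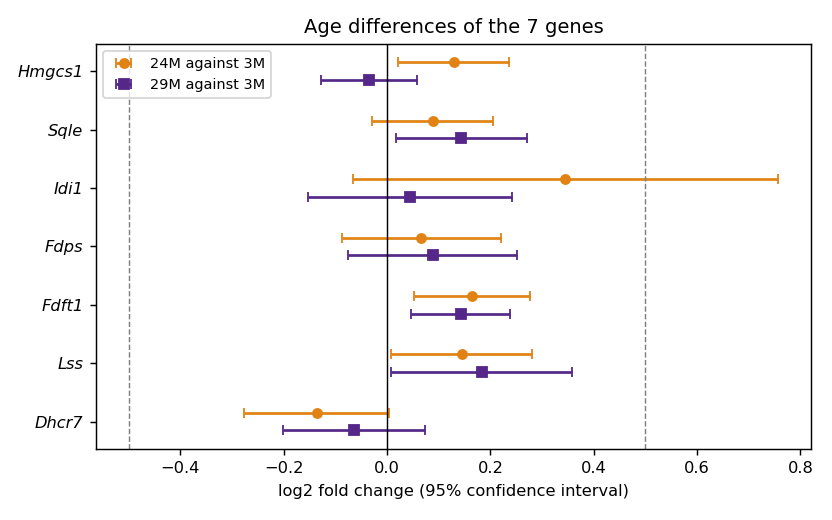
Log2 fold change of each of the 7 genes at 24M (orange circles) and 29M (purple squares) against the 3M group of the same library type, with 95% confidence intervals from edgeR; dashed lines mark the fold threshold of 0.5. Fdft1 and Lss lay to the right of 0 at both ages, Dhcr7 to the left, and the widest interval belonged to Idi1 at 24M.

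Hmgcs1 encodes the cytosolic HMG-CoA synthase, which feeds the mevalonate pathway. In single-end libraries it stood at 247, 267, 245, 246 and 276 CPM in 3M replicates 1 to 5. At 24M it stood at 289, 294, 283, 264 and 271 CPM (the averaged pair first, then replicates 2, 3, 5 and 6). The groups overlapped, with 3M replicates 2 and 5 above the lowest of the 24M samples. The level was 1.09-fold that of 3M (95% confidence interval 1.02 to 1.18, edgeR adjusted p = 0.123). Its log2 fold change of 0.13 went to 0.0085 with offsets for GC content and length, and to -0.0054 with these and the replicate number as a block. In paired-end libraries it read 265, 256 and 281 CPM at 3M and 264, 270 and 247 CPM at 29M. The 29M samples lay within or below the 3M range, at 0.976-fold (interval 0.915 to 1.04, edgeR adjusted p = 0.737), and single libraries left out moved the log2 fold change between -0.063 and 0.0012 (without 3M replicate 3).

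Idi1 encodes isopentenyl diphosphate isomerase, which interconverts the 5-carbon units of the pathway, and it was the least counted of the set. Its 3M single-end samples had 1.44, 1.54, 0.978, 1.56 and 2.05 CPM, and its 24M samples 1.85, 1.80, 1.93, 1.84 and 2.12 CPM. These values rest on 20 to 42 reads per library. Only 3M replicate 5 reached the 24M range, and 3M replicate 3 was lowest. The estimate was 1.27-fold (interval 0.955 to 1.69, edgeR adjusted p = 0.272). On the log2 scale it was 0.35, and it was 0.21 without 3M replicate 3, 0.47 with 3M replicate 5 left out, and 0.20 with GC and length offsets. In paired-end libraries, with 140 to 215 reads each, it had 14.8, 13.9 and 14.97 CPM at 3M and 15.2, 13.6 and 15.9 CPM at 29M. Those groups overlapped at 1.03-fold (interval 0.8995 to 1.18, edgeR adjusted p = 0.851), and the log2 fold change of 0.04 went to -0.0079 without 29M replicate 3. Leaving out 3M replicate 2 gave 0.011 and leaving out 29M replicate 2 gave 0.10.

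Fdps encodes farnesyl diphosphate synthase, whose product also enters protein prenylation, dolichol and ubiquinone. The 3M single-end samples had 18.2, 18.3, 18.1, 19.1 and 16.7 CPM and the 24M samples 18.1, 20.9, 19.7, 18.8 and 16.7 CPM. The lowest sample of both groups was nearly the same. At 24M the level was 1.05-fold (interval 0.941 to 1.16, edgeR adjusted p = 0.592), a log2 fold change of 0.07. Without 24M replicates 2, 3 or 6 or 3M replicate 5 it was 0.030, 0.041, 0.102 and 0.032, and with the replicate block 0.12. Paired-end values were 53.8, 45.5 and 50.1 CPM at 3M and 50.7, 58.2 and 49.5 CPM at 29M, or 1.06-fold (interval 0.950 to 1.19, edgeR adjusted p = 0.600). The groups overlapped there as well, and its log2 fold change of 0.09 was 0.15 when 3M replicate 1 was left out. It was 0.026 without 3M replicate 2 and 0.018 without 29M replicate 2.

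Fdft1 encodes squalene synthase, the first step committed to sterols, and it was the only 1 of the 7 genes whose aged samples all lay above their 3M samples at both ages. In single-end libraries it had 55.3, 52.8, 54.0, 51.5 and 49.1 CPM at 3M and 59.9, 57.1, 56.5, 63.4 and 57.1 CPM at 24M. In paired-end libraries it had 82.9, 85.8 and 81.7 CPM at 3M and 90.1, 95.3 and 90.6 CPM at 29M. Groups without overlap occurred in 6.61% of all genes tested at 24M and in 22.5% at 29M, in either direction, so 1 gene of 7 is not read as a property of the set. The level was 1.12-fold at 24M (interval 1.04 to 1.21, edgeR adjusted p = 0.0749) and 1.10-fold at 29M (interval 1.03 to 1.18, edgeR adjusted p = 0.110). Both intervals ended below the fold threshold. Across the alternatives run, the log2 fold change at 24M ranged from 0.13 to 0.18 and its adjusted p from 0.0231 to 0.301, with 4 of 22 fits (the main one included) at or below 0.05. The end of Fdft1 overlaps Ctsb, a lysosomal protease gene on the opposite strand, over 18.3% of its exonic bases. The library kit did not mark strand, so the gene that a read there came from cannot be told. How such reads were counted depends on the strand option of the counting, which is not listed. Ctsb itself, looked at after the values of Fdft1 had been seen, had 633 to 706 CPM at 3M and 604 to 664 CPM at 24M (log2 fold change -0.03, edgeR adjusted p = 0.658). At 29M its log2 fold change was 0.07 (edgeR adjusted p = 0.389).

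Sqle encodes squalene epoxidase, which adds the oxygen that later becomes the hydroxyl of cholesterol. The 3M single-end samples had 73.7, 76.0, 77.7, 79.0 and 67.1 CPM and the 24M samples 82.2, 79.6, 75.8, 75.9 and 83.9 CPM. At 24M 3 of the 5 samples lay above every 3M sample and the other 2 within their range. The level was 1.06-fold (interval 0.980 to 1.15, edgeR adjusted p = 0.325), and its log2 fold change of 0.09 was 0.045 without 3M replicate 5. At 3M in paired-end libraries it had 64.3, 59.5 and 65.8 CPM, and at 29M 72.8, 70.8 and 65.2 CPM. The groups overlapped through 29M replicate 3, at 1.105-fold (interval 1.01 to 1.21, edgeR adjusted p = 0.229).

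Lss encodes lanosterol synthase, which closes the sterol rings. Its 3M single-end samples had 40.3, 40.4, 36.0, 34.4 and 36.5 CPM and its 24M samples 41.0, 41.7, 43.4, 43.4 and 37.4 CPM. Among the 24M samples only replicate 6 fell within the 3M range, at 1.11-fold over the groups (interval 1.01 to 1.21, edgeR adjusted p = 0.169). The 3M paired-end samples had 41.2, 37.9 and 48.7 CPM and the 29M samples 49.9, 47.9 and 46.4 CPM. The 3M samples were spread widely, with a coefficient of variation of 12.9%, and replicate 3 lay above 2 of the 29M samples. The level was 1.14-fold at 29M (interval 1.01 to 1.28, edgeR adjusted p = 0.266). Its log2 fold change at 29M of 0.18 was 0.10 without 3M replicate 2 and 0.29 without 3M replicate 3.

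Dhcr7 encodes 7-dehydrocholesterol reductase, the last step of one branch to cholesterol, and it was the only 1 of the 7 with a negative estimate at both ages. At 3M in single-end libraries it had 41.6, 37.8, 40.6, 40.7 and 34.5 CPM, and at 24M 37.9, 34.6, 35.7, 36.9 and 32.2 CPM. Only 24M replicate 6 fell below every 3M sample. The level was 0.910-fold (interval 0.825 to 1.003, edgeR adjusted p = 0.205), and its log2 fold change of -0.14 was -0.088 with the replicate block and -0.048 with block and offsets. In paired-end libraries it had 36.1, 33.3 and 33.0 CPM at 3M and 32.8, 31.7 and 33.0 CPM at 29M. Those groups met at about the same value, at 0.957-fold (interval 0.869 to 1.05, edgeR adjusted p = 0.664). The log2 fold change of -0.06 was -0.024 without 3M replicate 1 and -0.11 with offsets.

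**Figure D2:**
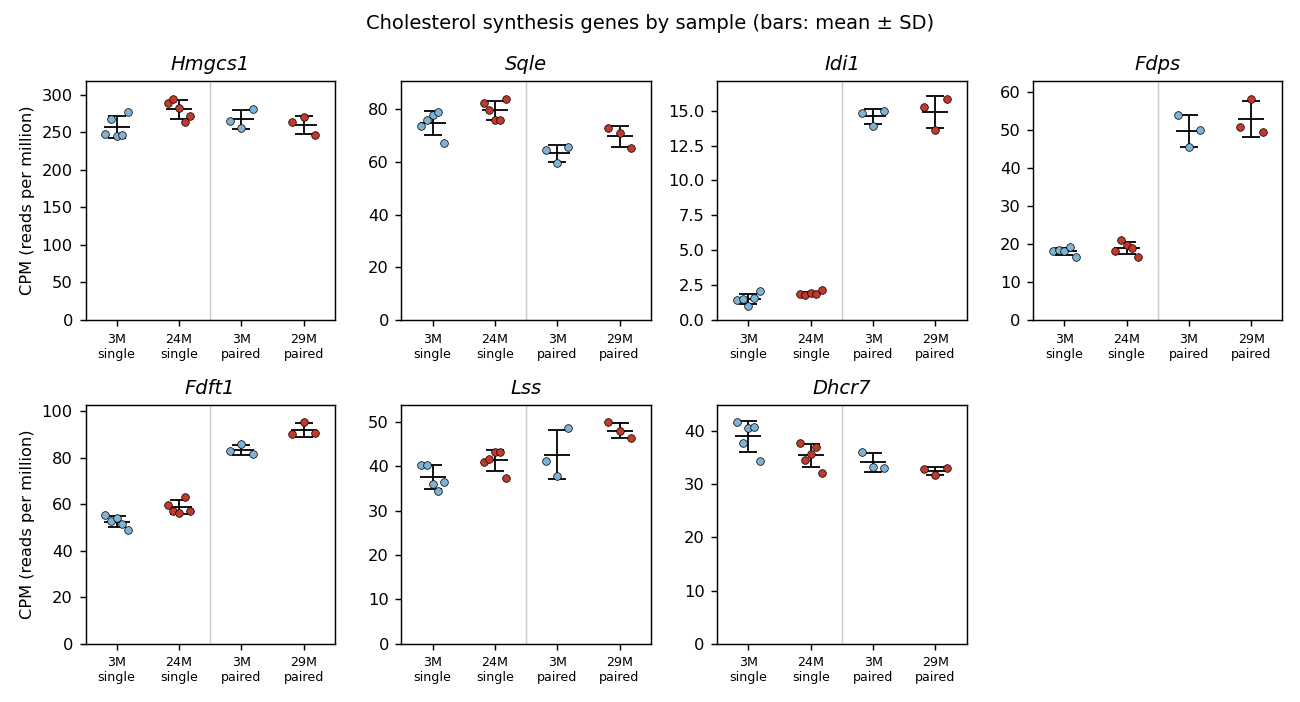
CPM of each gene in every sample (points), with the mean and SD of each group, for 3M (blue) and aged (red) samples; the grey line separates single-end from paired-end libraries, and every axis starts at 0. Aged and 3M points lie close together within a library type, whereas Idi1, Fdps and Fdft1 are higher in paired-end libraries.

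The difference between both aging effects was tested directly, as the 29M effect minus the 24M effect in a fit of all 4 groups. It passed an adjusted p of 0.05 in 0 of 7 genes with edgeR and in 0 with DESeq2, and in 0.00% of 16055 genes. Hmgcs1 was the only 1 of the 7 with an unadjusted p below 0.05 (10.4% of all genes tested), with a difference of -0.17 in log2 units (interval -0.33 to -0.0087, edgeR adjusted p = 0.460). The other differences ran from -0.32 for Idi1 (SE 0.21) to 0.07 for Dhcr7 (SE 0.10). Library type and experiment cannot be told apart from age in this difference.

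The largest contrast among the 7 genes was between the 3M groups of both experiments, which are of the same age, strain and tissue. This comparison was chosen after the values had been seen and is given as a description. Idi1 was 9.63-fold higher in paired-end than in single-end 3M libraries, Fdps 2.76-fold and Fdft1 1.59-fold. Lss (1.14-fold), Hmgcs1 (1.04-fold), Dhcr7 (0.873-fold) and Sqle (0.846-fold) lay near 1. Idi1 and Fdps, 2 of 7, therefore stood at least 2-fold apart, against 3.60% of 14898 genes. The other 14 synthesis enzymes had log2 ratios between -0.30 and 0.31, with a median of -0.11.

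The 3 genes with higher paired-end levels were those with the largest share of sequence found in other genes. Of all stretches of 50 bases in their transcripts, 25.3% for Idi1, 26.2% for Fdps and 26.5% for Fdft1 also occurred in transcripts of another gene. The shares were 11.6% for Hmgcs1, 1.86% for Lss, 1.37% for Dhcr7 and 0.0358% for Sqle. With stretches of 100 bases they were 21.9%, 21.4% and 18.3% for the first 3 genes. Reads that aligned to several places made up 22.9% to 26.6% of the single-end totals and 10.8% to 12.8% of the paired-end totals. Counts on the described pseudogenes themselves were low. Gm13502 had 0 to 2 reads in single-end and 3 to 14 in paired-end libraries, Gm3571 had 3 to 15 and 5 to 11, and Gm6781 had 2 to 10 and 1 to 5. Much of the sharing came from genes at the same locus. For Fdft1, Ctsb held 17.2% of the stretches of 50 bases and the pseudogene Gm6781 9.38%. For Fdps, Gm43738, an annotated gene that overlaps it on the same strand, held 23.4% and Gm3571 12.1%. No counted identifier carried the name Gm43738. The same was true of Gm48342, which held 10% for Hmgcs1, and of Gm48574, which held 7.62% for Idi1. For Idi1, the pseudogene Gm13502 held 17.7%. Further pseudogenes held less, with Gm35570 at 5.09% for Idi1 and Gm5873 at 5.53% for Fdps. The part of shared sequence in the gap was not tested.

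**Figure D3:**
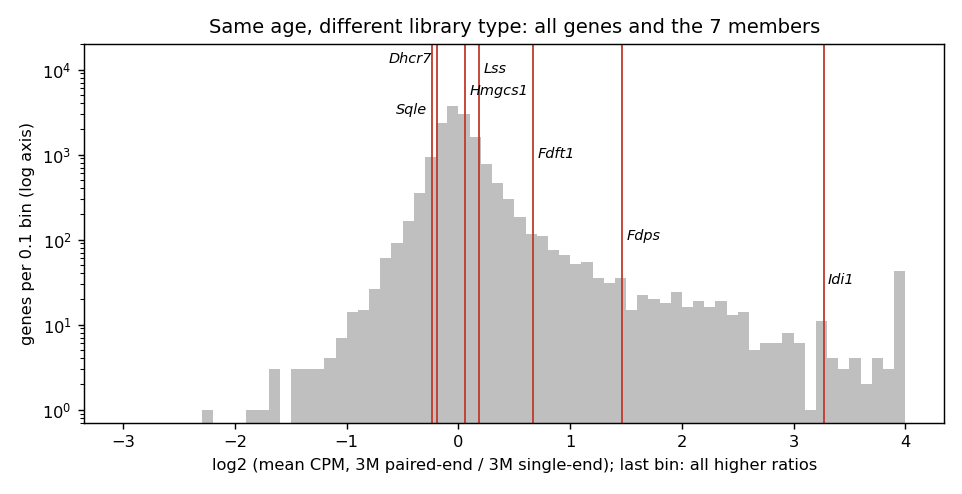
Number of genes (log axis) by the log2 ratio of mean CPM in 3M paired-end over 3M single-end libraries, for 14898 genes, with the 7 genes as red lines; ratios beyond the axis are in the last bin. Idi1 and Fdps lie in the right tail, Fdft1 on its shoulder, and the other 4 genes within the main peak.

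Levels of different genes were compared per length, as CPM per kilobase of the transcript with the longest coding sequence. In 3M single-end samples the mean level was 74.0 for Hmgcs1, 27.1 for Sqle, 23.6 for Dhcr7, 14.2 for Fdft1, 13.1 for Fdps, 8.04 for Lss and 0.5 for Idi1. Sqle and Dhcr7 overlapped between samples, as did Fdft1 and Fdps, and the other neighbours in that order did not overlap. In 3M paired-end samples the order was Hmgcs1 (77.2), Fdps (36.0), Sqle (22.9), Fdft1 (22.6), Dhcr7 (20.7), Lss (9.13) and Idi1 (4.82), where the only neighbours that overlapped were Sqle and Fdft1. Hmgcs1 was highest in all 4 groups and Idi1 lowest. Per kilobase of all annotated exons, Dhcr7 fell below Fdft1 in single-end samples (6.71 against 12.4). The middle of the order thus depends on the length used. It also depends on the library type, with Fdps at 13.1 in single-end and 36.0 in paired-end 3M samples.

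Pairwise correlations of the 7 genes between samples of a group were of both signs. Deviations of log2 CPM from the group mean were correlated over 16 samples, which share library depth and normalization, and these values are descriptions. Over 21 pairs of genes the median Pearson r was 0.108, 14 pairs were above 0, and r ranged from -0.59 for Idi1 with Fdft1 to 0.562 for Fdft1 with Dhcr7. Each gene set against the mean of the other 6 gave a median of -0.0593, from -0.435 for Idi1 to 0.372 for Lss. The median over 11839 other genes against the mean of the 7 was -0.000744, and over the other 14 synthesis enzymes 0.0124. The coefficient of variation of Hmgcs1 within groups was 4.54% to 5.65%, against 1.33% to 1.81% from counting alone. For Idi1 in 3M single-end samples it was 25.3%, against 17.5% from counting.

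**Figure D4:**
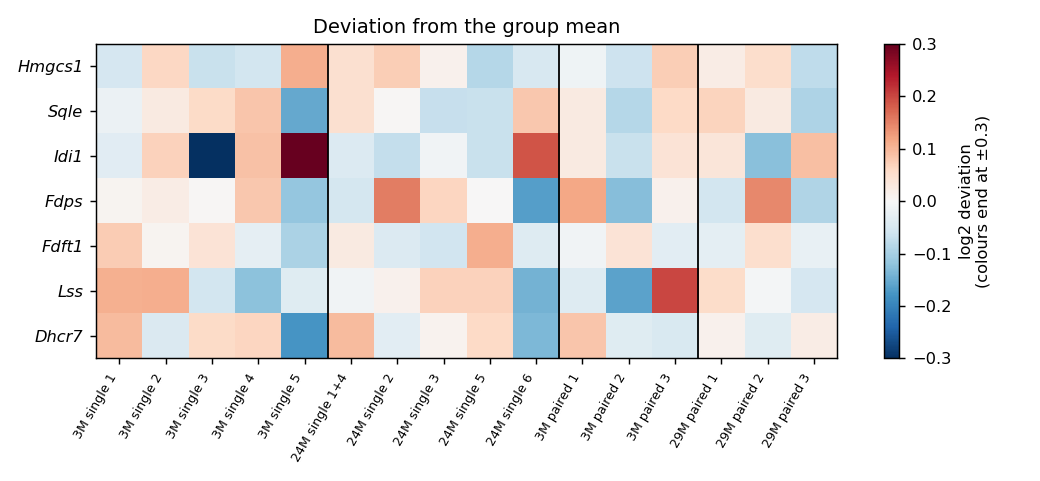
Deviation of log2 CPM from the group mean for each of the 7 genes (rows) in each of 16 samples (columns), red above and blue below the mean; black lines separate the groups and colours end at 0.3 either way. Columns mix red and blue, and the strongest colours are Idi1 in 3M single-end replicates 3 (-0.58) and 5 (0.46).

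The 5 genes whose deviations were most like the mean of the 7 were Rsl24d1 (Pearson r 0.837, Spearman rho 0.685), 2510002D24Rik (0.831 and 0.891), Nmnat1 (0.816 and 0.618), Psme2 (0.79 and 0.726) and Wdr53 (0.775 and 0.744). They were the top of 11839 genes over 16 samples. Without Idi1 in the mean, a step added after the values had been seen, r fell to between 0.378 (Psme2) and 0.592 (Wdr53) for all but 2510002D24Rik, which had 0.853. None of the 5 passed an adjusted p of 0.05 at either age, with edgeR adjusted p values from 0.375 to 0.958.

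Of the other 14 synthesis enzymes 6 lay above and 8 below 3M at 24M (median log2 fold change -0.04), and 10 lay above and 4 below at 29M (median 0.03). None was called at either age. Without the fold threshold 1 passed, Mvd, the decarboxylase that makes isopentenyl diphosphate. It had 22.4, 17.6, 20.3, 20.7 and 16.02 CPM at 3M and 16.9, 14.99, 13.6, 14.7 and 14.97 CPM at 24M. Its 24M samples were lower except for an overlap of the averaged pair with 3M replicate 5, with a log2 fold change of -0.37 (SE 0.10, edgeR adjusted p = 0.0410). That p passed in 11 of 22 fits. At 29M Mvd had 20.6, 15.4 and 18.2 CPM against 16.3, 15.7 and 15.3 CPM at 3M, a log2 fold change of 0.21 (edgeR adjusted p = 0.317). The difference between its age effects was 0.57 (SE 0.16, unadjusted p = 0.00177, edgeR adjusted p = 0.392).

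Sterol sensing genes numbered 7, with none called at either age. Srebf2, which encodes SREBP2, had 236 to 269 CPM at 3M and 232 to 260 CPM at 24M. At 29M it had 254, 257 and 255 CPM, above the 3M values of 241, 227 and 233 CPM. The difference was 0.13 in log2 units (SE 0.03, edgeR adjusted p = 0.0532). Groups without overlap occurred in 22.5% of all genes tested at 29M. For Scap the estimate was -0.15 in log2 units at 24M (edgeR adjusted p = 0.123) and -0.02 at 29M (0.849), and Insig1 of -0.06 (0.672) and 0.09 (0.453). Without the fold threshold 1 gene of the list passed, Mbtps2, a membrane protease that releases active SREBP. It had 28.3, 33.8, 30.1, 33.0 and 38.6 CPM at 3M and 38.9, 43.3, 42.1, 37.2 and 39.4 CPM at 24M, a difference of 0.30 in log2 units (SE 0.08, edgeR adjusted p = 0.0482). Only 24M replicate 5 fell within the 3M range, and the p passed in 10 of 22 fits. At 29M the estimate for Mbtps2 was -0.05 (edgeR adjusted p = 0.806).

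Uptake and transport was read over 11 genes, of which 8 lay above and 3 below 3M at both ages, with a median log2 fold change of 0.09 at each. None of these 11 was called at either age by edgeR or by DESeq2, and 2 had an unadjusted p below 0.05 at 24M and 2 at 29M, against 26.1% and 17.3% of all genes tested. Lrp1, a receptor for lipoproteins that carry apolipoprotein E, passed without the fold threshold at 24M, with 560 to 614 CPM against 601 to 694 CPM at 3M (log2 fold change -0.20, SE 0.05, edgeR adjusted p = 0.0344). That p passed in 12 of 22 fits. It failed with the block or the offsets, and without the averaged pair. It also failed when any 1 of 3M replicates 1, 2 and 3 or 24M replicates 2, 3 and 6 was left out. The log2 fold change of Lrp1 reached -0.087. Its value at 29M was -0.02 (edgeR adjusted p = 0.821).

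Among genes of efflux and turnover none was called, of 11 tested at 24M and 10 at 29M. At an unadjusted p below 0.05 there were 8 of 11 at 24M and 2 of 10 at 29M. Over all genes tested the shares were 26.1% and 17.3%. The directions were mixed, with 5 above and 6 below 3M at 24M, and 7 above and 3 below at 29M. Apoe, which encodes the main lipid carrier of the brain, passed without the fold threshold at 29M. It had 1306, 1461 and 1427 CPM at 3M and 1656, 1660 and 1717 CPM at 29M. The groups did not overlap, which held for 22.5% of all genes tested at 29M. The log2 fold change of Apoe was 0.27 (SE 0.05, edgeR adjusted p = 0.00927). It passed in 14 of 15 fits and failed with all 4 groups in 1 fit (edgeR adjusted p = 0.195). At 24M Apoe had 1299 to 1675 CPM against 1229 to 1453 CPM, a log2 fold change of 0.16 (edgeR adjusted p = 0.150). The 7 isoprenoid branch genes had none that passed either rule. Of 8 genes of fatty acid synthesis, Fasn, the fatty acid synthase, passed without the fold threshold at 24M (log2 fold change -0.23, SE 0.06, edgeR adjusted p = 0.0400). Fasn passed in 12 of 22 fits, and its log2 fold change reached -0.123. It failed with the block or the offsets, and without the averaged pair. It also failed when any 1 of 3M replicates 1, 2 and 3 or 24M replicates 2, 3 and 6 was left out. Its samples had 331 to 372 CPM at 24M and 365 to 448 CPM at 3M, and its value at 29M was 0.03 (edgeR adjusted p = 0.753).

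**Figure D5:**
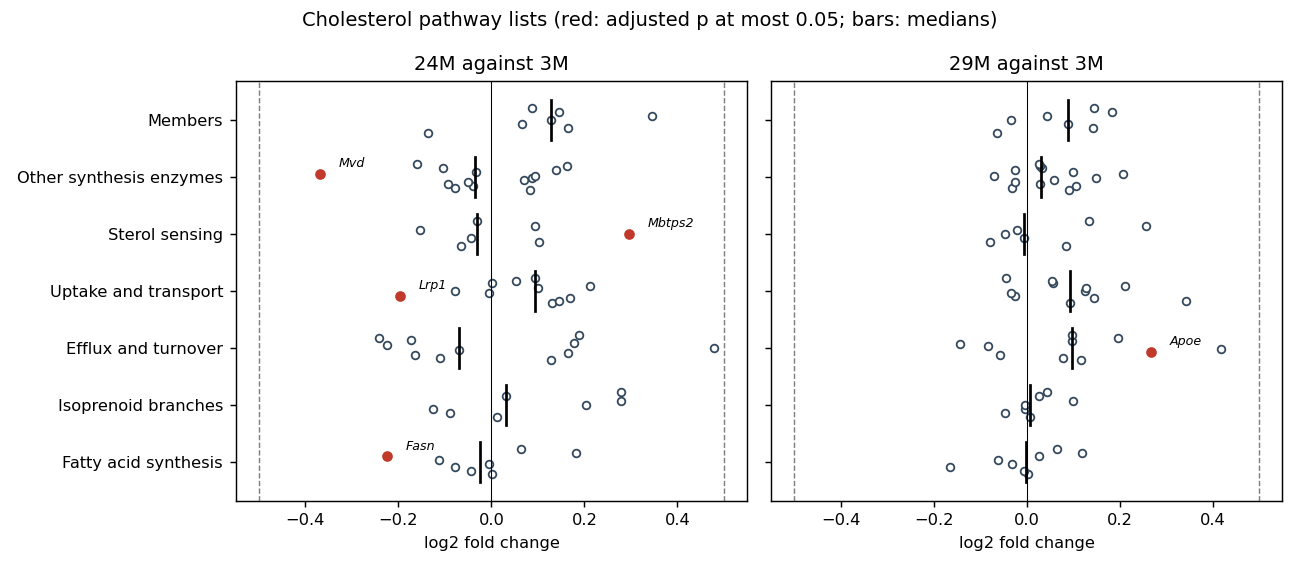
Log2 fold change of each gene of the 7 lists at 24M (left) and 29M (right) against 3M of the same library type; filled red points passed an adjusted p of 0.05 with edgeR and are named, bars are list medians and dashed lines mark the fold threshold. The 5 filled points lie inside the fold threshold, and all 7 members are open points.

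Markers of several cell types moved with age beside these genes. All 7 microglial markers were above 3M at both ages, and their sum was 431 to 463 CPM at 24M against 340 to 391.5 CPM, and 440 to 460 CPM at 29M against 338 to 348 CPM. The sum of 6 markers of oligodendrocyte precursors was 143 to 162 CPM at 24M against 164 to 182 CPM, and 136 to 147 CPM at 29M against 171 to 177 CPM. Gpr17 was the only 1 of these 6 called, at 22.5 to 30.4 CPM at 24M against 45.6 to 60.5 CPM, and at 29M 24.9 to 31.2 CPM against 54.7 to 58.0 CPM. At 24M 3 of the 6 lay above 3M and 3 below. Sums of 10 oligodendrocyte markers overlapped at both ages, with 6356 to 7418 CPM at 24M against 4360 to 7591 CPM. At each age 7 of the 10 lay above and 3 below 3M, and none was called. Without the fold threshold 0 passed at 24M and 1 at 29M, Ermn (log2 fold change 0.41, edgeR adjusted p = 0.0170). At 24M Ermn had 0.64 (edgeR adjusted p = 0.0525). Astrocyte sums were 6807 to 7267 CPM at 24M against 6287 to 6960 CPM, and 6600 to 6629 CPM at 29M against 6127 to 6237 CPM. Gfap, a marker of reactive astrocytes, was the only 1 of these 10 called, with a mean of 757 CPM at 24M against 479 CPM, and 825 CPM at 29M against 475 CPM. Slc1a2 and Slc1a3 had log2 fold changes of 0.0063 to 0.028. Of the 10 astrocyte markers 8 lay above and 2 below 3M at each age. Without the fold threshold 2 passed at 24M, Gfap and Aqp4 (log2 fold change 0.40, edgeR adjusted p = 0.0279). At 29M 2 passed, Gfap and Fgfr3 (0.16, edgeR adjusted p = 0.0412). Aldh1l1 had -0.26 at 24M (edgeR adjusted p = 0.0516) and 0.06 at 29M. No marker of these 4 lists was at 0 in any sample. The part of these shifts in the levels of Fdft1, Apoe or the other genes was not tested.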

How the data were processed

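PolyA RNA from hippocampus was analysed in 17 libraries. The authors aligned reads with STAR 2.3.0 to GRCm38.p2, used HTSeq to count them per gene, and deposited these raw counts. The overlap mode was intersection-nonempty, and no strand option is listed among the non-default parameters. For the annotation of the counting, nothing was given in the sources used here. Counter lines without a gene entered neither library sizes nor tests. They were reads on no feature (8.59% to 15.9%), ambiguous reads (1.01% to 1.42%) and reads with several alignments (10.8% to 26.6%). Of 38355 identifiers 36602 were named.

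The main test was edgeR 4.0.16 in R 4.3.3 (quasi-likelihood, TMM, default filter, Benjamini-Hochberg adjustment). Each fit used the samples of its own comparison, and printed CPM values used TMM over all 16 samples. Log2 deviations used a prior count of 2. The steps were tested on simulated data. Alternatives were DESeq2 1.42.0, its size factors, no filter, a stricter filter (at least 1 CPM), no fold threshold, and loess offsets (span 0.3) for GC content and length. A replicate block with and without these offsets, all 4 groups in 1 fit, 24M libraries 1 and 4 kept apart or left out, and each library left out were also run. Depth limits the precision of genes under 1 CPM.

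The members, lists and tests were chosen with earlier results of these data known. Genes named besides the members are those of the lists that passed an adjusted p of 0.05 at either age, Srebf2, Scap and Insig1, and the 5 genes most correlated with the members at a mean of at least 5 CPM. Promoters shown are those with a sterol element. The result of 1 gene is not reported here, and that gene stayed out of the list counts.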

Additional observations from a re-analysis of the deposited data

How the results depend on the processing

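The count of called members was 0 of 7 at both ages in every alternative run, and the test of the difference between age effects, run without the block or offsets, passed for 0 members in each of its 23 alternatives. The count of the 58 other pathway genes called at 24M, which was 0, became 4 without the fold threshold (Mvd, Mbtps2, Lrp1 and Fasn). It was 0 with the replicate block, alone or with GC and length offsets, where none of these 4 passed. With single libraries left out it was 0 to 1, where Cyp27a1, named after its values were seen, was called without 3M single-end replicate 4. At 29M the count of 0 became 1 without a filter (Ch25h, named after its values were seen) and 1 without the fold threshold (Apoe). The members' median log2 fold change at 24M moved from 0.13 to 0.071 with GC and length offsets. At 29M, where it was 0.089, it ranged from 0.026 (without 3M paired-end replicate 2) to 0.135 with single libraries left out. Hmgcs1 changed sign at 24M with the block and offsets together (-0.0054). At 29M it ranged from -0.063 to 0.0012 (without 3M paired-end replicate 3) and Idi1 from -0.0079 (without 29M replicate 3) to 0.103. The causes were not tested. Between same-numbered samples r ran from -0.137 to 0.0578 in the 24M comparison and from -0.0686 to 0.0907 in the other. No differently numbered pairs were set beside them, so these values cannot decide whether replicate numbers pair the samples. With the block, genes called over the whole table went from 310 to 83 at 24M and from 219 to 225 at 29M. All 4 groups in 1 fit gave 518 and 86, the block with offsets 122 at 24M, the fit without the averaged pair 163 at 24M, and no filter 441 at 29M. Single libraries left out gave 119 to 568 and 124 to 221. The 20 to 42 reads per library on Idi1 limit its precision in single-end data.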
